A study of Mus musculus with 1 sample.

Results

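The genes described here encode the oxidative phosphorylation machinery of mitochondria, read in single cells of a mouse testis preparation enriched for spermatogonia. Members were taken by symbol: the mitochondrial-encoded mt-Nd, mt-Co, mt-Atp and mt-Cyt genes and the nuclear genes whose names start with Nduf, Uqcr, Sdh (Sdha to Sdhd), Cox4 to Cox8 or Atp5, where at least 1 molecule was counted. The rule found 105 members, 13 mitochondrial-encoded and 92 nuclear, among 18722 genes with a count. Molecules were counted by unique molecular identifiers (UMIs), which tag each captured transcript once near its 3′ end, so counts were not divided by transcript length. All cells came from 1 library, made from wild-type C57BL/6 mice at postnatal day 8. Testis cells selected with THY1+ magnetic beads, which enrich spermatogonia, were mixed with a small number of unselected testis cells, and equal numbers of cells from 3 mice were pooled before loading. Because the mice cannot be told apart in the counts, there was no biological replicate, no test was run, and the 95% intervals in parentheses cover counting error only. The Zscan2 knockout library was not analysed here.

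Oxidative phosphorylation couples electron transport to ATP synthesis in the mitochondrial inner membrane. Complex I (most Nduf products and the mt-Nd products) takes electrons from NADH and complex II (succinate dehydrogenase, the Sdh products) takes them from succinate. Complex III (Uqcr products and mt-Cytb) hands them to cytochrome c, and complex IV (cytochrome c oxidase, with the Cox and mt-Co products) passes them to oxygen. Complex V (most Atp5 products, mt-Atp6 and mt-Atp8) makes ATP from the proton gradient. Complex II is built from nuclear genes alone, while the other complexes need both genomes. Several complex IV subunits exist as tissue isoforms, and the testis is a tissue known for its own versions of electron transport proteins.

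The library held 970 cell barcodes with 2655 to 44915 UMIs each (median 9115), of which 920 were kept. They formed 324 germ cells and 596 somatic cells, clustered with all members left out of the variable genes. The names rest on marker levels in UMIs per 1000000 (CPM). Ddx4, a germ cell RNA helicase, was at 134 CPM in germ cells and 3.36 in somatic cells. Within the germ cells, 119 were called SSC-like (spermatogonial stem cell-like, Lhx1 at 63.5 CPM against 13.2 in the progenitor-like cells), 76 progenitor-like (Neurog3 at 51.2 against 3.16 in the SSC-like cells) and 129 differentiating-like (Stra8 at 928 against 101 in the SSC-like cells). Not every listed marker followed these names. Nanos2, from the SSC list, was at 13.4 CPM in SSC-like cells against 19.0 in the progenitor-like ones. Id4, Etv5, Bcl6b and Eomes were, like Lhx1, higher in the SSC-like cells. Sox3, a progenitor marker, was higher in differentiating-like cells (42.4 CPM against 37.3 in its own class), and Rarg was near even (15.7 against 16.1). Nanos3, Eno1, Msi2 and Upp1 were, like Neurog3, highest among germ stages in the progenitor-like class. The name progenitor-like is a weak one, since the 10 genes that set this cluster apart by fold hold none of its markers, as was also so for other named clusters, and start with a pair of hemoglobin genes, Hba-a1 and Hbb-bs. A single barcode of this cluster held 3604 Hba-a1 UMIs of its 12196 UMIs, with 0 of Ddx4 and 0 of Dazl, and it goes against its germ label. Without cells of over 100 Hba-a1 UMIs the progenitor-like over SSC-like ratio of the mitochondrial-encoded share was 1.04 and the germ over somatic ratio 1.49. Somatic cells split into 255 Sertoli-like and 186 stromal-like cells, 94 peritubular myoid-like cells and 35 macrophage-like cells. Sox9 was at 456 CPM, Dcn at 3758, Acta2 at 6808 and C1qa at 3449 in their respective classes. All Sertoli and macrophage markers were highest in their own classes. Pdgfra, Dcn, Col1a1 and Lum were highest in stromal-like cells. Tcf21 and Igf1, also on the stromal list, were higher in myoid-like (390 against 157 CPM) and macrophage-like cells (934 against 495). The myoid marker Des was near even (54.0 against 53.0 in stromal-like cells). Stromal-like cells also held the Leydig markers Hsd3b1 at 169 CPM and Cyp11a1 at 116, and the endothelial marker Cdh5 at 130. A cluster of 26 cells scored highest for T cell markers, but it held unlike cells. It was left unnamed here and is called by its leading gene, Xcl1. The median depth differed between classes, at 22104 UMIs per SSC-like cell, 19218.5 per progenitor-like cell, 11112 per differentiating-like cell, 8343 per Sertoli-like cell and 8370.5 per stromal-like cell.

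The mitochondrial-encoded members made up a larger share of all UMIs in germ cells than in somatic cells, and the nuclear members differed in the same direction by less. The 13 mitochondrial-encoded genes took 6.81% of germ cell UMIs (6.78 to 6.83) and 4.57% of somatic UMIs (4.55 to 4.59), a ratio of 1.489 (1.481 to 1.497). The nuclear members took 3.69% and 3.13%, a ratio of 1.18 (1.17 to 1.19). The somatic value is an average over classes that lay far apart. Sertoli-like cells, the nurse cells of the seminiferous tubule, had a mitochondrial-encoded share of 6.14%, close to the 6.19% of differentiating-like germ cells, whereas stromal-like cells had 3.21% and peritubular myoid-like cells, the contractile cells around the tubule, had 3.13%. Macrophage-like cells lay between, at 4.50%. The Sertoli-like over stromal-like ratio, 1.91 (1.89 to 1.93), was therefore larger than the ratio of germ over somatic cells. The germ value depends on the limit on mitochondrial UMIs, which reads the same genes: when barcodes were kept only below 5% instead of 10%, 67 germ cells were left and the germ over somatic ratio turned to 0.831.

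Across the germ stages the mitochondrial-encoded and nuclear shares were ordered oppositely. The mitochondrial-encoded share was 6.998% (6.97 to 7.03) for the SSC-like cells, 7.19% (7.15 to 7.24) for the progenitor-like and 6.19% (6.15 to 6.23) for the differentiating-like. The nuclear share was 3.67% (3.65 to 3.69), 3.42% (3.39 to 3.45) and 3.95% (3.92 to 3.98) in the same order. The number of mitochondrial-encoded UMIs per nuclear member UMI was thus 1.906, 2.103 and 1.569. It was 1.80 in Sertoli-like, 1.34 in macrophage-like, 1.15 in stromal-like and 1.13 in peritubular myoid-like cells. Below all of these lay the Xcl1-led cluster, at 0.834 (0.803 to 0.866), the one group with fewer mitochondrial-encoded than nuclear member UMIs. The step from SSC-like to progenitor-like cells is small, 1.03 (1.02 to 1.04) for the mitochondrial-encoded share, and it turned to 0.938 when no mitochondrial limit was applied. Differentiating-like over SSC-like cells gave 0.884 (0.878 to 0.891) and stayed below 1 in each alternative that could be computed.

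Single cells overlapped between classes. The median cell had a mitochondrial-encoded share of 6.99% in SSC-like, 7.29% in progenitor-like, 6.06% in Sertoli-like, 3.09% in stromal-like and 3.14% in peritubular myoid-like cells. The quartiles of the stromal-like cells, 2.604% and 3.553%, lay under those of the Sertoli-like cells, 5.21% and 6.88%. Nuclear shares were tighter, with medians of 3.71% in SSC-like, 3.44% in progenitor-like, 3.43% in Sertoli-like and 2.66% in stromal-like cells. When cells were thinned to 5000 UMIs and shallower ones left out (45 of 324 germ and 48 of 596 somatic cells), these 4 classes kept their order in the mitochondrial-encoded share, at 6.95%, 7.26%, 6.17% and 3.20%. In the nuclear share, progenitor-like cells at 3.39% then lay below Sertoli-like cells at 3.42%.

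**Figure D1:**
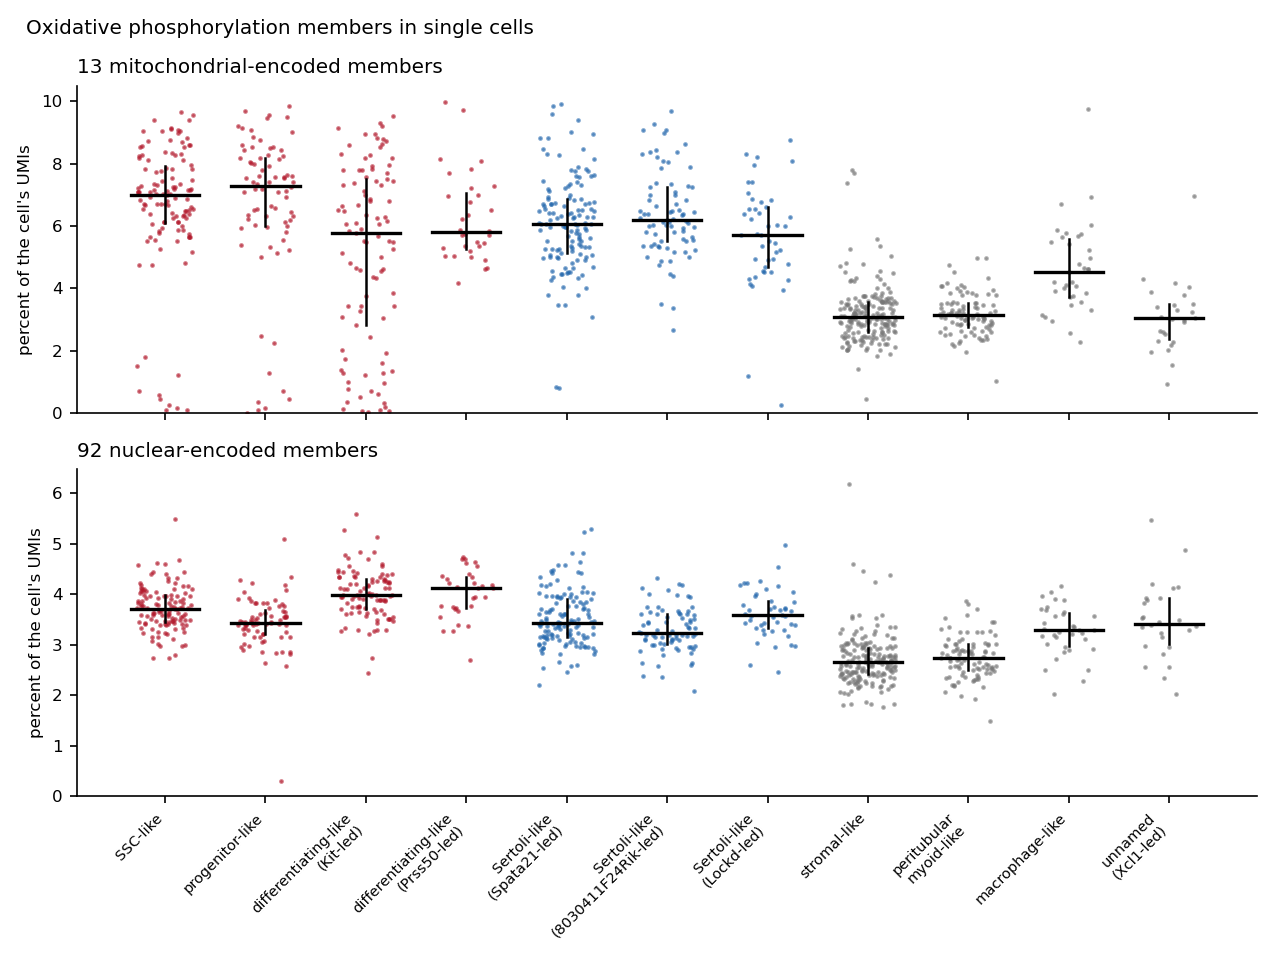
Each point is 1 cell, plotted by its percent of UMIs from the 13 mitochondrial-encoded members (top) and from the 92 nuclear members (bottom) in 11 groups of cells, with the median as a black bar and the quartiles as a vertical line. The Sertoli-like median, 6.06%, sits with the germ groups in the top panel, the stromal-like and peritubular myoid-like medians are 3.09% and 3.14%, and a scatter of germ cells lies near 0.

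A small set of germ cells had a very low share of mitochondrial-encoded UMIs. Among 324 germ cells, 27 (8.33%) had a share under 1%, against 5 of 596 somatic cells (0.839%). One of the 27 is the barcode rich in Hba-a1 UMIs, whose nuclear member share was 0.312%, the lowest among germ cells. The other 26 cells together had 0.372% mitochondrial-encoded UMIs (0.339 to 0.408) and 4.07% nuclear member UMIs, beside 6.96% and 3.69% in the 297 germ cells at 1% or more, and their nuclear shares ran from 3.28% to 5.49% per cell. Their nuclear members were thus not low while the mitochondrial-encoded ones were. The lowest 5 germ cells held 0 of 3151, 3 of 7574, 2 of 3648, 2 of 2878 and 9 of 9485 UMIs. By stage the 27 were 14 differentiating-like cells beside 7 SSC-like and 6 progenitor-like ones, and all 14 belonged to the larger of its clusters, the Kit-led one of 97 cells. Depth moved with the low share. Of 54 germ cells with fewer than 6000 UMIs 19 (35.2%) were under 1%, against 8 of 270 deeper ones (2.96%), and the share was 3.57% over the shallow and 6.93% over the deeper cells. The part of depth in this result was not tested. Germ cell markers were present in the 26 cells, with Dazl at 881 CPM against 791 and Ddx4 at 74.1 against 136 in the germ cells at 1% or more, and Sertoli and stromal markers were low (Sox9 at 8.23 and Dcn at 16.5, beside 202 and 1202 in somatic cells). Malat1, a nuclear RNA, was at 263 CPM in the 26 cells and 4077 in the germ cells at 1% or more. It was at 741 CPM in those at 1% or more with under 6000 UMIs. Whether the 26 barcodes are whole cells was not tested. Without the 27 germ cells and the 5 somatic cells, the germ over somatic ratio of the mitochondrial-encoded share was 1.52 and the differentiating-like over SSC-like ratio 0.908.

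The 13 mitochondrial-encoded genes did not differ by the same factor. All are cut from long polycistronic transcripts of the mitochondrial chromosome, and most are polyadenylated, which lets an oligo-dT library capture them. Over all barcodes mt-Atp6, a proton channel subunit of complex V, gave 21.2% of mitochondrial-encoded UMIs, mt-Co3 20.5% and mt-Co1 19.996%, so these 3 genes together gave 61.6%. In the comparison of germ with somatic cells, mt-Nd3 had the highest ratio, 1.98 (1.91 to 2.06), at 1471 against 742.5 CPM. Next came the catalytic complex IV subunit mt-Co1 at 1.72 (1.70 to 1.74), with 14409 against 8389 CPM. The other ratios above 1.5 were mt-Nd4l at 1.68, mt-Atp6 at 1.61 and mt-Atp8 at 1.52. On the mitochondrial chromosome mt-Atp8 (positions 7766 to 7969) overlaps mt-Atp6 (7927 to 8607). Likewise mt-Nd4l (9877 to 10173) overlaps mt-Nd4 (10167 to 11544), so the ratios within each pair may not be separate measures. The remaining complex I genes lay lower, with mt-Nd1 at 1.49, mt-Nd4 at 1.24, mt-Nd2 at 1.21 and mt-Nd5 at 1.02 (0.943 to 1.10), and mt-Cytb of complex III was at 1.14 (1.12 to 1.16).

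The exception in direction was mt-Nd6, a complex I subunit and the one protein gene on the minus strand of the mitochondrial chromosome (13552 to 14070). It had 38 UMIs in germ cells and 106 in somatic cells, 6.84 and 19.8 CPM, a ratio of 0.346 (0.232 to 0.505). With 159 UMIs over all barcodes it was the least counted of the mitochondrial-encoded genes, and how well it is captured was not tested. Its level was 7.89 CPM for SSC-like, 6.58 for progenitor-like and 7.22 for Kit-led differentiating-like cells, against 26.1 in Sertoli-like, 18.9 in stromal-like and 14.9 in peritubular myoid-like cells. The Prss50-led germ cells had 0 UMIs, which allows up to 7.39 CPM. Every germ group was thus under these 3 somatic classes, while macrophage-like cells were at 5.81 CPM on 3 UMIs and the Xcl1-led cluster at 6.06 CPM on 1 UMI.

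The same genes were ordered differently in Sertoli-like over stromal-like cells. There 12 of 12 mitochondrial-encoded genes with 100 UMIs or more had a ratio above 1.5, beside 40.8% of 5091 genes read the same way. The highest of the 12 was mt-Nd2 at 2.70 (2.55 to 2.85), which was near the lower end in the germ comparison. Next were mt-Nd4l at 2.14 and mt-Atp6 at 2.11. The lowest of the 12 were mt-Cytb at 1.59 and mt-Nd5 at 1.53 (1.34 to 1.75). The gene under the minimum was mt-Nd6, whose Sertoli-like and stromal-like levels given above differ by less than 1.5-fold. The make-up of the mitochondrial-encoded UMIs also varied by class: mt-Co1 supplied 21.7% of them in SSC-like, 19.0% in Sertoli-like, 19.7% in stromal-like, 14.6% in peritubular myoid-like cells and 12.8% in the Xcl1-led cluster. Within germ cells, differentiating-like cells were lower than SSC-like cells for mt-Nd1 (0.768, 0.749 to 0.788) and mt-Co1 (0.782, 0.768 to 0.795) and slightly higher for mt-Cytb (1.06, 1.03 to 1.09).

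**Figure D2:**
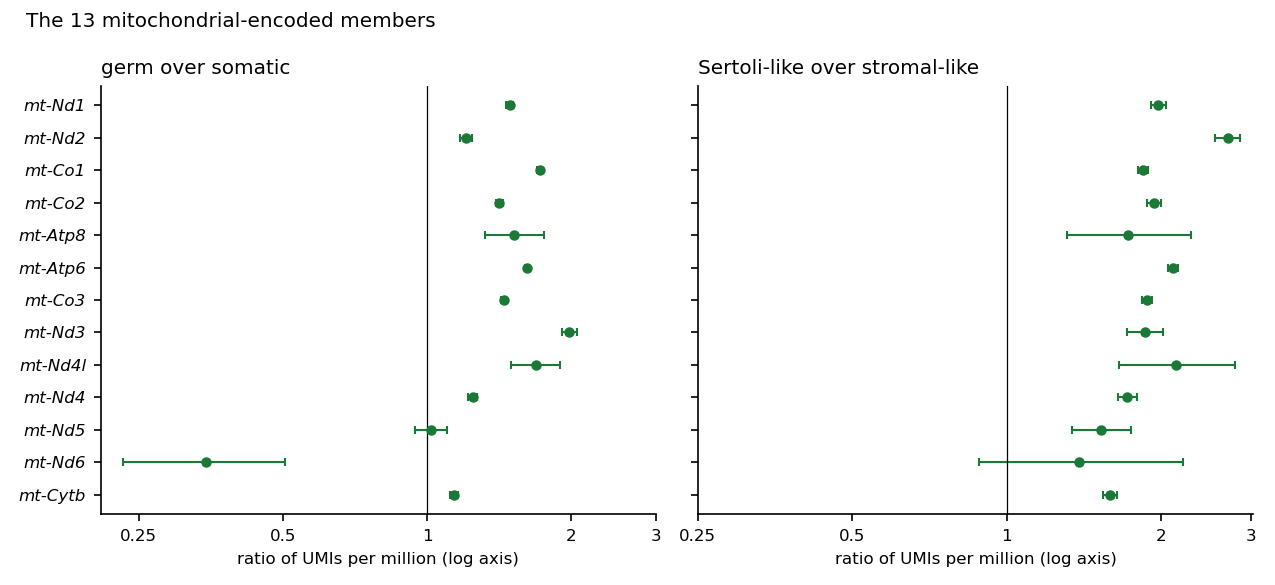
Ratio of CPM (log axis) for each of the 13 mitochondrial-encoded genes in germ over somatic cells and in Sertoli-like over stromal-like cells, with 95% intervals for counting error. In the germ comparison the points run from 0.346 for mt-Nd6 to 1.98 for mt-Nd3, and in the Sertoli comparison mt-Nd2 is the highest at 2.70.

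For the nuclear members, a gene was counted as different when its CPM ratio reached 1.5 in either direction, among genes with at least 100 UMIs in both classes together. In germ over somatic cells 90 nuclear members could be read, 26 of them higher and 11 lower. The 11 include Cox4i2 and Ndufa4l2, whose UMIs lay mostly in the 26 cells of the Xcl1-led cluster (92.5% and 84.0%). Over all 9073 genes read the same way, 35.1% were higher and 31.6% lower, so the members did not pass this mark more often than genes at large, and their median ratio was 1.13 beside 1.09 over all genes. With a mitochondrial limit of 5% the number lower was 6. Of the 13 mitochondrial-encoded genes, 5 were higher and 1 lower. As a share of UMIs, nuclear complex IV genes showed the widest gap among the large complexes, 1.13% in germ and 0.870% in somatic cells, beside 1.22% and 1.06% for complex I, 0.362% and 0.319% for complex III, and 0.887% and 0.813% for complex V. Complex II had 0.0556% and 0.0482%, and the 7 Ndufaf genes, which help assemble complex I and are not part of it, 0.0348% and 0.0205%. Complexes were assigned by gene symbol. This counts Ndufa4, a complex IV subunit, and its isoform Ndufa4l2 under complex I. Atp5sl, which is not an ATP synthase subunit, is likewise counted under complex V.

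Complex I, as assigned by symbol, had 9 of 38 members higher and 5 lower in germ cells, beside 35.1% and 31.6% over all genes. The same shares stand beside the counts for the assembly factors and the other complexes below. Those higher included Ndufv1, the subunit that binds NADH, at 207 against 69.98 CPM (2.96, 2.63 to 3.34), and Ndufb9, a membrane arm subunit, at 977 against 372 CPM (2.63, 2.49 to 2.76). Ndufs8, an iron-sulfur subunit, was at 341 against 154 CPM and Ndufa11 at 642 against 296 CPM. Ndufb9 had similar levels in the germ groups, 978 CPM in SSC-like cells, 1010 in progenitor-like cells, 972 in Kit-led and 879 in Prss50-led cells, and 260.5 to 433 CPM in the somatic groups. Those lower were Ndufa4l2 (described with the isoforms), Ndufa12 at 138 against 264 CPM (0.524, 0.479 to 0.572), Ndufb4 at 225 against 369, and the X-linked Ndufb11 and Ndufa1 at 194 against 306 and 170.5 against 265 CPM. The third X-linked member, Cox7b, also lay below 1, at 0.694 (0.643 to 0.748), within the fold. Among the assembly factors 4 of 7 were higher, Ndufaf2 most at 148 against 62.5 CPM (2.37, 2.09 to 2.70), and Ndufaf3 was lower, at 14.2 against 34.3 CPM (0.414, 0.314 to 0.542).

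The 4 subunits of complex II differed in direction. Sdhb, the iron-sulfur subunit, was at 272 CPM in germ and 174 in somatic cells (1.56, 1.44 to 1.70), whereas Sdhd, a membrane anchor, was at 73.1 against 126 (0.582, 0.513 to 0.659). Sdha, the flavoprotein that oxidises succinate, and Sdhc, the other anchor, lay between them at 102 against 88.6 and 109 against 94.0 CPM. Sdhd was under the somatic classes in every germ group, 67.1 CPM in SSC-like, 82.6 in progenitor-like, 70.6 in Kit-led and 86.2 in Prss50-led cells beside 105 in stromal-like, 108 in peritubular myoid-like, 135 in Sertoli-like and 178 in macrophage-like cells.

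Complex III had 2 of 8 members higher, while 35.1% of all genes were higher in this comparison. These 2 were the small subunit Uqcr11 at 907 against 534 CPM (1.70, 1.62 to 1.78) and the core subunit Uqcrc1 at 208 against 132. The Rieske iron-sulfur protein gene Uqcrfs1 was lower, at 102 against 174 CPM (0.586, 0.527 to 0.651). Complex IV had 5 of 16 higher and 3 lower, and apart from the isoforms the largest in CPM was Cox7c, at 2172 against 1127 (1.93, 1.87 to 1.99), with all 4 germ groups between 1453 and 2298 CPM and the somatic groups between 928 and 1309. Cox4i1 was at 1865 against 1140 CPM and Cox6a1 at 964 against 620. Complex V had 5 of 17 higher and none lower. These were Atp5g1, Atp5f1 (428 against 268 CPM), Atp5o (533 against 352), Atp5sl (35.8 against 20.3, placed here by its symbol alone) and Atp5s (14.8 against 9.33).

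**Figure D3:**
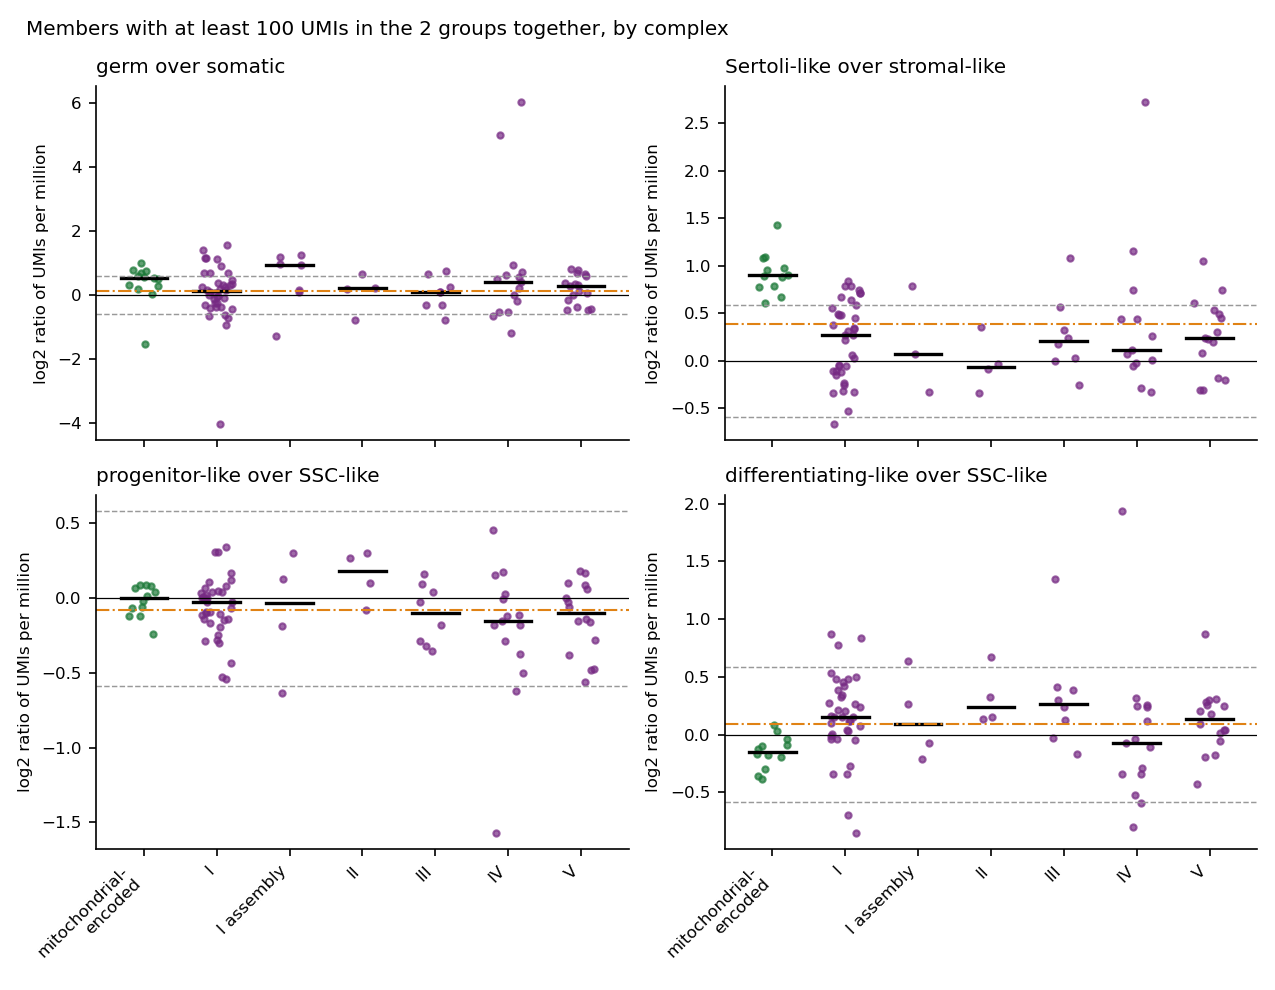
Each point is 1 member, plotted by its log2 ratio of CPM and grouped by complex (assigned by symbol), for 4 comparisons of cell classes. Black bars mark group medians, an orange line the median of all genes and dashed lines the 1.5 fold. In germ over somatic cells most members lie inside the dashed lines, the ratios run from 0.0609 for Ndufa4l2 to 65.4 for Cox7b2, and Cox4i2, with 0 germ UMIs, is not drawn.

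In germ over somatic cells the largest differences among the members, in both directions, belonged to tissue isoforms, which are alternative versions of a subunit encoded by separate genes. On the lower side, Cox4i2 and Ndufa4l2 stood out through the Xcl1-led cluster, not through somatic cells at large. The promoters of the pairs on which these results turn are shown for comparison. RefSeq sequences on build GRCm38.p6, 250 bases before to 50 after the start, 5′ to 3′, are given for Cox7b (chrX:106015450-106015749, plus strand) and Cox7b2 (chr5:71548156-71548455, minus strand), for Cox6b1 (chr7:30626065-30626364, minus strand) and Cox6b2 (chr7:4753045-4753344, minus strand), and for the widely expressed Cox8a (chr19:7217567-7217866, minus strand). Capitals mark CTTCCGG, the reverse complement of the core CCGGAAG bound by ETS factors such as GABPA.
Cox7b: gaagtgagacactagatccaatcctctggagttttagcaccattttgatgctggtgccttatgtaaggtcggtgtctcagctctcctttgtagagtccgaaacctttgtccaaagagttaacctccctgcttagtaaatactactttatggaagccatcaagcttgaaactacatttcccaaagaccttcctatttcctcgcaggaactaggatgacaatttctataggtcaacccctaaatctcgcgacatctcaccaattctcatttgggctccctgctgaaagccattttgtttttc
Cox7b2: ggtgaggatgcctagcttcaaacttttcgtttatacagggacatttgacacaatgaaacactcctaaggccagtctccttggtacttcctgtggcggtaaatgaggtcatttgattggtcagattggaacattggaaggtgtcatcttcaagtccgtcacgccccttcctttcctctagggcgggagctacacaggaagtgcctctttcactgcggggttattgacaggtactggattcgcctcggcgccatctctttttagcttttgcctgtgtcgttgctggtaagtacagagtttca
Cox6b1: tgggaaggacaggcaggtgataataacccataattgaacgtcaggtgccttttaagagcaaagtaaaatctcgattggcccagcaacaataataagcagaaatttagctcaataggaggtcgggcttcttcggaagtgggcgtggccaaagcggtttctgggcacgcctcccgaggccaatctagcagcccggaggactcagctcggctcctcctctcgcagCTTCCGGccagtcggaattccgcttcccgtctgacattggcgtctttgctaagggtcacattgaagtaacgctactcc
Cox6b2: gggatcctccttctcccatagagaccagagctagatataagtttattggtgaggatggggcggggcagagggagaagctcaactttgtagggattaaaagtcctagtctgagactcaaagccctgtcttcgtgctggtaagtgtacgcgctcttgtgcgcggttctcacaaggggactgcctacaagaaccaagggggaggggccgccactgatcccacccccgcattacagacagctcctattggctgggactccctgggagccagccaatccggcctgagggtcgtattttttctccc
Cox8a: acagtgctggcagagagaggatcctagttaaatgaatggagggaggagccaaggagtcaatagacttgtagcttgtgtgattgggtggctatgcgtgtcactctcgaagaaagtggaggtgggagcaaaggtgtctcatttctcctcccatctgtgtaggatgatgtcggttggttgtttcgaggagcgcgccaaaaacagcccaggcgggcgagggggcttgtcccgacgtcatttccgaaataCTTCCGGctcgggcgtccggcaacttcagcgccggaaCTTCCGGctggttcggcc

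Cox6b1 held 1 such match and Cox8a 2, and no match was found in Cox7b, Cox7b2 or Cox6b2. The promoters of Cox7a1, Cox7a2 and Ndufa4, not printed here, also held none. No promoter sequence was at hand for Cox8c, Cox4i2 or Ndufa4l2. The number of CG dinucleotides was 5 in Cox7b, 10 in Cox7b2, 17 in Cox6b1, 10 in Cox6b2 and 19 in Cox8a. Promoter sequences were at hand for 73 of the 92 nuclear members. Searched on both strands, CCGGAAG lay in 17 of them (23.3%) beside 9.93% of 27025 genes, and GCGCATGCG, the core of the site of NRF1, a regulator of respiratory genes, lay in 10 (13.7%) beside 1.95%. The motif ACGTG, the core of hypoxia response elements, lay in 17 (23.3%) beside 21.8%. The median number of CG dinucleotides was 19 in the members and 8 over all genes, and motifs rich in CG move with it. These are letter matches and say nothing on binding.

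Cox7b2, an isoform of complex IV subunit 7b (chromosome 5, 71442824 to 71548205, minus strand), had the highest germ over somatic ratio of all members. It stood at 202 CPM (185 to 221) in SSC-like, 156 (136 to 179) in progenitor-like, 134 in Kit-led and 135 in Prss50-led cells, and at 2.61 in Sertoli-like, 1.22 in stromal-like, 2.70 in peritubular myoid-like, 3.88 in macrophage-like and 12.1 in Xcl1-led cells. The germ groups did not overlap the somatic classes. Over all germ cells there were 949 UMIs against 14 in somatic cells, a ratio of 65.4 (38.8 to 120). A UMI was seen in 280 of 324 germ cells (86.4%) and 13 of 596 somatic cells (2.18%), and after thinning to 5000 UMIs in 52.0% and 1.46%. The median depth was 18216 UMIs in germ and 8193.5 in somatic cells. The germ markers Ddx4 and Dazl had somatic levels of 3.36 and 14.7 CPM beside 134 and 792 in germ cells. Whether the somatic Cox7b2 UMIs come from free RNA in droplets was not tested. Its X-linked partner Cox7b (chromosome X, 106015700 to 106022450, plus strand) was present throughout, at 215 CPM in germ and 310 in somatic cells. Cox7b2 thus supplied 44.3% (42.1 to 46.4) of the UMIs of the pair in germ cells, 62.5% (51.5 to 72.6) in the Prss50-led cluster and 0.835% in somatic cells. The Prss50-led share rests on 88 UMIs of the pair and was not recomputed under other clusterings.

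Cox8c, an isoform of complex IV subunit 8 known from testis (chromosome 12, 102899316 to 102900526, plus strand), was also higher in germ than in somatic cells, at a lower level than Cox7b2. It was at 43.4 CPM in SSC-like, 14.6 in progenitor-like, 38.5 in Kit-led and 49.2 in Prss50-led cells, and at 2.18 in Sertoli-like and 1.35 in peritubular myoid-like cells, with 0 UMIs in stromal-like, macrophage-like and Xcl1-led cells. A count of 0 in the stromal-like cells allows up to 1.83 CPM. Germ cells had 198 UMIs and somatic cells 6 (31.8, 14.4 to 87.8, and 108 with a mitochondrial limit of 5%), and 120 of 324 germ cells (37.0%) and 6 of 596 somatic cells (1.01%) held a UMI, or 16.5% and 0.547% after thinning. Unlike Cox7b2, it made up little of its family: 2.89% of Cox8 UMIs in germ cells, and 10.7% (6.66 to 16.0) in the Prss50-led cluster, where Cox8a itself was low. The late over early differentiating-like ratio of Cox8a was 0.330 here and 0.980 with variable genes chosen by another method (vst), as described below. The 10.7% share was not recomputed under other clusterings. Cox8b, the muscle isoform, had 1 UMI in the library.

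Cox6b2, a testis-enriched isoform of subunit 6b (chromosome 7, 4751792 to 4753094, minus strand), did not follow the germ and somatic divide. It was at 22.9 CPM in SSC-like, 31.4 in progenitor-like, 76.2 in Kit-led and 123 (91.4 to 162) in Prss50-led cells. In somatic cells it was at 91.9 in Sertoli-like, 91.4 in stromal-like, 223 (190 to 260) in peritubular myoid-like and 21.3 in macrophage-like cells. The highest level was thus in the myoid-like cells, where 69 of 94 (73.4%) held a UMI and it supplied 25.2% (21.9 to 28.7) of Cox6b UMIs, against 2.88% in SSC-like cells. Its partner Cox6b1 was near even, at 702 CPM in germ and 697 in somatic cells.

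Cox7a1, the isoform of subunit 7a known from heart and muscle (chromosome 7, 30184144 to 30186078, plus strand), was highest in Sertoli-like cells. It stood at 104.5 CPM (91.7 to 119) there, with 125, 99.1 and 61.8 CPM in the 3 Sertoli-like clusters, and at 32.3 in SSC-like, 29.98 in progenitor-like, 15.8 in stromal-like and 4.05 CPM (3 UMIs) in peritubular myoid-like cells. The contractile myoid-like cells named by their muscle markers had the lowest of these levels. It supplied 7.41% of Cox7a UMIs in Sertoli-like cells, where Cox7a2 supplied 53.6% and Cox7a2l 39.0%. Cox6a2, the other muscle isoform, had 31 UMIs in all, 22 of them in Sertoli-like cells. Among the Atp5g genes, which encode 1 identical mature ring subunit of complex V, Atp5g1 supplied 56.3% (55.3 to 57.2) of UMIs in germ and 36.1% (35.1 to 37.1) in somatic cells, at 1027 against 596 CPM. Atp5g2 and Atp5g3 lay the other way, at 483 against 626 and 316 against 427 CPM.

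Cox4i2 and Ndufa4l2, isoforms of complex IV subunit 4 and of Ndufa4 that are known to respond to low oxygen and to be expressed in pericytes, sat together in few cells. Cox4i2 (chromosome 2, 152754173 to 152765037, plus strand) had 107 UMIs in the kept cells and 99 of them (92.5%) lay in the Xcl1-led cluster, which is 2.83% of the cells. There it reached 599.8 CPM (488 to 730) and 30.6% of Cox4 UMIs. Germ cells had 0 UMIs, which allows up to 0.540 CPM, and Sertoli-like, stromal-like and peritubular myoid-like cells had 2, 4 and 2 UMIs. Ndufa4l2 (chromosome 10, 127514967 to 127517154, plus strand) had 219 UMIs and 184 of them (84.0%) in the same cluster, at 1115 CPM (960 to 1288), where it outnumbered Ndufa4 with 65.0% of the UMIs of the pair. Stromal-like cells had 19 UMIs (11.6 CPM) and SSC-like cells 11 (4.34 CPM).

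The cluster held unlike cells and was kept unnamed. When it was split by markers, a split chosen after these values were seen, 10 cells had a UMI of Rgs5, a pericyte gene, and no Cd3 UMI, 12 had a Cd3 UMI, which marks T cells, and no Rgs5 UMI, and 4 had neither. All 99 Cox4i2 and all 184 Ndufa4l2 UMIs fell in the 10 Rgs5 cells, at 1594 and 2962 CPM, with 9 cells holding Cox4i2 and 10 holding 6 to 33 UMIs of Ndufa4l2 each. Higd1b, also among the genes that set this cluster apart by fold, had 101 UMIs and Acta2 278 in the same cells. The 12 Cd3 cells had 0 UMIs of both isoforms, beside 238 of Xcl1 and 152 of Cd3g. Cox4i1 was found in all 26 cells.

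**Figure D4:**
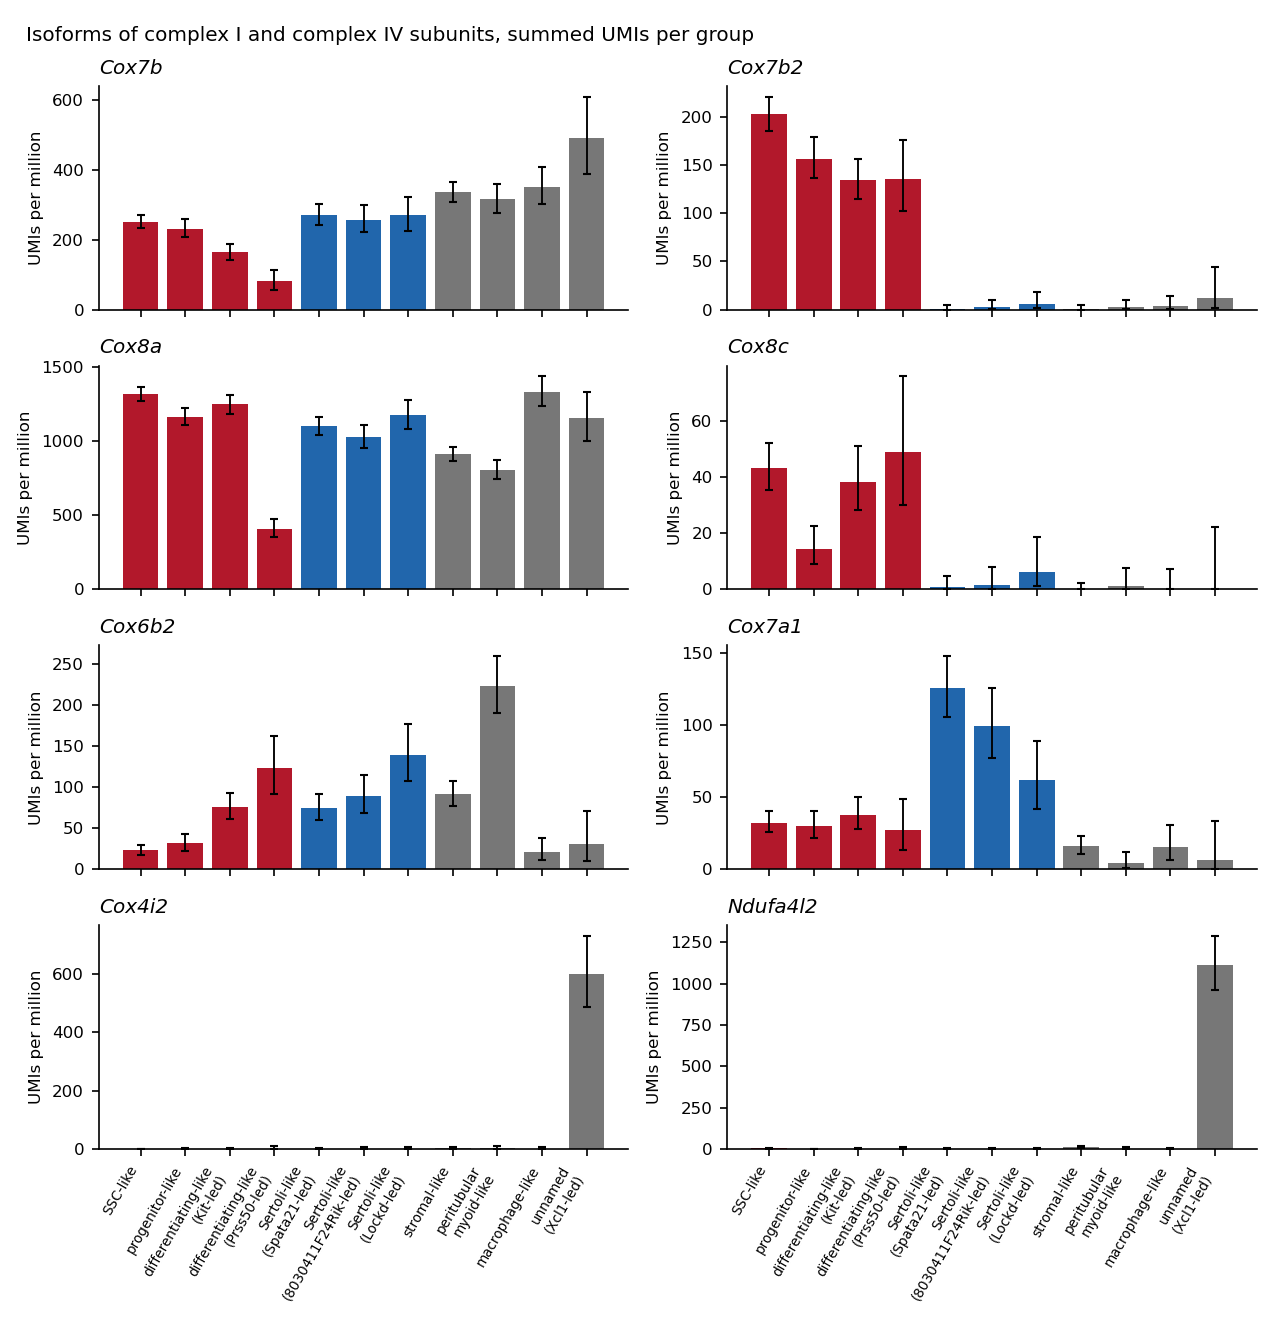
Bars give the CPM of 8 complex IV and Ndufa4-related genes in 11 groups of cells (red germ, blue Sertoli-like, grey other somatic) with 95% Poisson intervals. Cox7b2 and Cox8c bars stand in the germ groups, Cox6b2 peaks at 223 CPM in peritubular myoid-like cells, Cox7a1 in Sertoli-like clusters, and Cox4i2 and Ndufa4l2 in the Xcl1-led cluster at 599.8 and 1115 CPM.

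Sertoli-like over stromal-like cells was the contrast in which the mitochondrial-encoded genes differed most, and the nuclear members differed less. Of 80 readable nuclear members 17 were higher and 1 lower, beside 40.8% higher and 15.6% lower over 5091 genes, with a median ratio of 1.18 against 1.31 over all genes. The nuclear share was 3.40% against 2.79% of UMIs, a ratio of 1.22 (1.21 to 1.24), less than the 1.91 of the mitochondrial-encoded share. After Cox7a1 (6.601, 4.40 to 10.3), the largest differences were the complex IV subunit Cox5a at 418 against 188 CPM (2.23, 1.96 to 2.54), the complex III subunit Uqcrq at 647 against 305 (2.12, 1.91 to 2.35) and the central stalk subunit of complex V, Atp5c1, at 782 against 378 (2.07, 1.89 to 2.27). Complex I had 9 of 37 higher, among them Ndufb7 at 352 against 197 CPM and Ndufb4 at 495 against 286. Ndufv1 was the gene on the lower side, at 58.4 against 92.6 CPM (0.630, 0.496 to 0.801), and Ndufb11 at 0.693, Sdhc at 0.789, Ndufv3 at 0.790 and Cox7b at 0.797 were within the fold, the last turning to 1.11 with a mitochondrial limit of 5%. Ribosomal protein genes took 21.95% of UMIs in Sertoli-like and 31.7% in stromal-like cells, and with mitochondrial and ribosomal genes left out of the total, 11 members were higher. With that limit of 5%, which left 54 Sertoli-like and 82 stromal-like cells, 30 were higher.

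In progenitor-like over SSC-like cells 84 nuclear members could be read, of which 0 were higher and 3 lower, beside 4.37% and 9.68% of 4803 genes, and 0 of 12 mitochondrial-encoded genes passed the fold. Ribosomal protein genes took 31.6% of UMIs in the progenitor-like and 27.5% in the SSC-like cells, and without them and the mitochondrial genes in the total the number lower was 1. Those lower were Cox8c at 14.6 against 43.4 CPM (0.337, 0.198 to 0.546), the assembly factor Ndufaf2 at 109.7 against 170 (0.645, 0.532 to 0.778) and Cox7a2 at 596 against 916 (0.651, 0.600 to 0.705). The highest ratios, Cox6b2 at 1.37 (0.904 to 2.07) and Ndufa10 at 1.27 (1.04 to 1.54), stayed within the fold, as did Ndufb11, Ndufa6 and Ndufaf5 at 1.24 each, and Atp5f1 at 0.676 and Ndufa1 at 0.688 on the lower side.

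In differentiating-like over SSC-like cells 8 of 84 nuclear members were higher and 4 lower, beside 14.7% and 9.79% of 5150 genes. The largest was Cox6b2, at 87.7 against 22.9 CPM (3.83, 2.81 to 5.29), followed by Uqcrc2, a core subunit of complex III, at 133 against 52.5 (2.54, 2.04 to 3.17). The complex V stalk subunit Atp5f1 was at 672 against 366.5 CPM (1.834, 1.680 to 2.004), Ndufa1 at 267 against 146, Ndufa12 at 203 against 113 and Sdhb at 363 against 228. Lower were Ndufb11 at 116 against 209 CPM (0.555, 0.468 to 0.655), Cox7b at 145 against 252 (0.574, 0.492 to 0.667), Ndufv3 at 149 against 242 and Cox7b2 at 134 against 202. Both subunit 7b genes were thus lower in this class. The 3 X-linked members did not share a direction, as Ndufb11 and Cox7b were lower and Ndufa1 higher.

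The differentiating-like cells were made of a Kit-led cluster of 97 cells and a Prss50-led cluster of 32, and the comparison of these was added after the data had been seen. Prss50 was at 281 CPM in the latter and 4.81 in the former, Esx1 at 519 against 40.9 and Ly6k at 244 against 15.2. Of 78 readable nuclear members 15 were higher and 10 lower in the Prss50-led cells, beside 15.5% and 17.9% of 2558 genes. Higher were Uqcrc2 at 229 against 102 CPM (2.25, 1.70 to 2.96), Atp5f1 at 1137 against 521 (2.18, 1.93 to 2.46), Ndufa1 at 446 against 209 (2.14, 1.76 to 2.59), Ndufb5 at 475 against 225 and Uqcrfs1 at 180.2 against 94.7. Lower were Ndufb11 at 41.9 against 140.4 CPM (0.298, 0.170 to 0.491), Cox8a at 411 against 1248 (0.330, 0.279 to 0.387), Ndufv3 at 61.5 against 178, Ndufa8 at 103 against 237 and Cox7b at 81.2 against 165. Cox8a stood between 806 and 1333 CPM in every other germ group and in the somatic groups, all above its Prss50-led level.

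This comparison depends on how the cells were clustered. When variable genes came from the vst method, the late cluster was led by Ly6k and held 81 cells beside 70 early ones, and 7 of the 10 named genes were then within the fold. Cox8a was at 0.980, Atp5f1 at 1.07, Uqcrc2 at 1.246, Ndufb5 at 1.09, Ndufb11 at 0.743 (0.546 to 1.02) and Ndufa8 at 0.818, while Uqcrfs1 turned to 0.798. Ndufa1 stayed higher at 2.36 (1.72 to 3.31) and Ndufv3 and Cox7b lower at 0.618 and 0.651. At a resolution of 1.2, with 40 late and 85 early cells, Cox8a was at 0.451, Ndufa8 at 0.657 and Atp5f1 at 2.07.

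**Figure D5:**
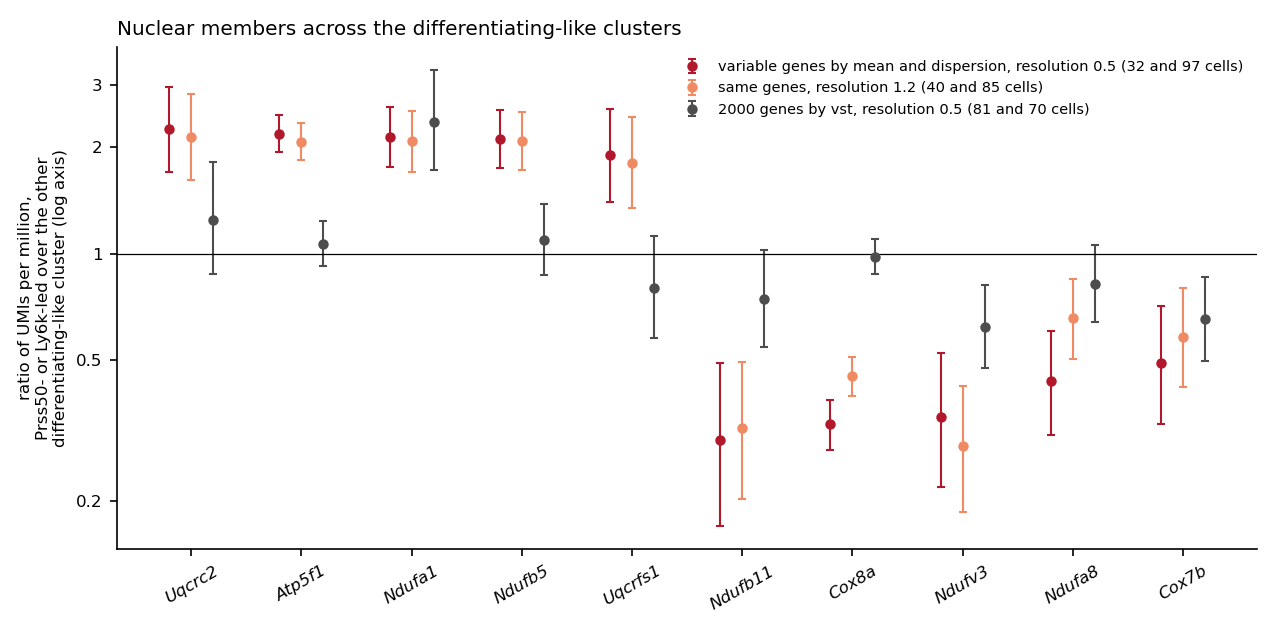
Ratio of CPM (log axis) in the late over the early differentiating-like cluster for 10 nuclear members, with 95% intervals, under 3 ways of clustering. Ndufa1 is above 2 in each, whereas Cox8a moves from 0.330 to 0.980 with the vst genes.

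Other genes of the pathway gave context for the members. Of 76 readable mitochondrial ribosome genes, which serve the translation of the 13 mitochondrial-encoded messages, 36 were higher and 5 lower in germ over somatic cells, with a median ratio of 1.42, beside the 35.1% higher and 31.6% lower over all genes, which also stand beside the other lists of this comparison. Of 15 genes of mitochondrial DNA expression, 8 were higher and 1 lower, with the DNA-binding protein Ssbp1 at 276 against 114 CPM and the transcription factor Tfam, at 51.7 against 37.7, within the fold. All 3 regulators past the fold among 4 readable ones were higher, Pprc1 at 89.3 against 12.7 CPM, Gabpa at 35.5 against 11.9 and Nrf1 at 40.1 against 17.7. The other readable one, Yy1, was at 35.3 against 39.4 CPM. Those with too few UMIs lay lower in germ cells, Esrra at 6.48 against 10.1, Ppargc1a at 0.180 against 4.48 and Ppargc1b at 1.80 against 2.24 CPM. Of 35 other assembly factors 15 were higher and 4 lower, with Cox11 at 87.7 against 20.2 CPM and Uqcc2 at 723 against 263. In Sertoli-like over stromal-like cells 20 of 71 mitochondrial ribosome genes were higher and 0 lower, beside 40.8% and 15.6% over all genes. In progenitor-like over SSC-like cells 2 of 73 were higher and 5 lower, beside 4.37% and 9.68%.

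The mobile carriers also come as germ and somatic isoforms. In germ over somatic cells 1 of 5 readable electron carriers was higher and 3 lower, and of 11 inner membrane carriers and ATP synthase partners 3 were higher and 4 lower, beside 35.1% and 31.6% over all genes. Cyct, the testis cytochrome c, was at 112 CPM in germ and 1.87 in somatic cells (60.1, 32.5 to 126). Cycs, the somatic form, was at 469 against 1046 CPM (0.448), a somatic value carried by Sertoli-like cells at 2137. Its germ level was above the 215 of stromal-like, 190 of peritubular myoid-like, 281 of macrophage-like and 351 of Xcl1-led cells. Within germ cells Cycs was above Cyct. Slc25a31, the ADP/ATP carrier of germ cells, was at 208 against 2.61 CPM, while Slc25a4 was at 80.3 against 457 and Slc25a5 at 145 against 425. Chchd10, an intermembrane space protein, was at 165 CPM in germ cells and 3264 in Sertoli-like cells, beside 193 in stromal-like cells.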

How the data were processed

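Chromium v2 libraries were aligned to mm10 with Cell Ranger 2.1.0, per the submitters' processing notes, and the authors deposited unnormalized UMI counts per gene and barcode. From these counts, barcodes were kept if they had 500 genes or more, a mitochondrial share under 10% and no call by scrublet (scanpy 1.11.5, rate 0.01, seed 0), which called 4 doublets. They were clustered in Seurat 5.3.0 (R 4.3.3), after the study's settings: scaling to 10000 UMIs, mean.var.plot variable genes, 14 components, resolution 0.5, with germ cells clustered again. The members were left out of the variable genes. Clusters were named from marker lists, apart from the Xcl1-led one. Counts were summed per class and given as CPM (per 1000000 UMIs), with exact Poisson intervals for levels, exact binomial (Clopper-Pearson) ones for shares and conditional binomial ones for ratios (scipy 1.17.1, Python 3.11.15), which ignore that UMIs of a cell are not independent. Limits for a count of 0 are 3 UMIs over the class total. The ratio step was tested on simulated data. Named genes were the mitochondrial-encoded members, the isoform families, Sdha to Sdhd and the 5 highest and 5 lowest ratios per comparison; others were picked for their role or because they passed the fold. Members and lists were chosen with earlier results of these data known. Gene positions are from GENCODE M21 (GRCm38). All 105 members had a record, and Atp5sl is named Dmac2 there. Alternatives covered the mitochondrial limit, clustering, denominator, averaging over cells, thinning, germ cell selection, fold and UMI minimum.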

Additional observations from a re-analysis of the deposited data

How the results depend on the processing

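No paired analysis was possible because there was 1 library, and for the same reason no replicate could be left out. The cause of a change under an alternative was not tested. Ratios of the mitochondrial-encoded share are given first. Germ over somatic was 1.52 with no mitochondrial limit, 0.831 (reversed) with a limit of 5%, 1.36 as a mean over cells, 1.46 with cells thinned to 5000 UMIs, 1.44 with germ cells taken by a Ddx4 or Dazl UMI and 1.52 without cells under 1%, the last added after the data were seen. Progenitor-like over SSC-like was 0.938 (reversed) with no limit, 1.01 at a resolution of 1.2, 1.02 with members kept among the variable genes, 1.02 with 2000 vst genes, 1.01 as a mean over cells, 1.04 thinned, 1.04 without cells of over 100 Hba-a1 UMIs and 1.04 without cells under 1%. Differentiating-like over SSC-like was 0.871 with no limit, 0.866 with members kept, 0.834 with vst genes, 0.815 as a mean over cells, 0.852 thinned and 0.908 without cells under 1%. Sertoli-like over stromal-like was 1.88 with no limit and 1.47 with the limit of 5%. That limit reads the same genes as this ratio, and it left 54 Sertoli-like and 82 stromal-like cells.

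Of the nuclear share, germ over somatic was 1.32 with the limit of 5%, 1.205 at a resolution of 1.2, 1.21 without mitochondrial genes in the denominator, 1.249 without mitochondrial and ribosomal genes, 1.21 as a mean over cells and 1.19 thinned. Progenitor-like over SSC-like was 0.972 with no limit, 0.975 with vst genes and 0.997 without mitochondrial and ribosomal genes. Differentiating-like over SSC-like was 1.09 with vst genes and 1.03 without mitochondrial and ribosomal genes. Sertoli-like over stromal-like was 1.43 with the limit of 5%, 1.24 with vst genes, 1.26 without mitochondrial genes, 1.11 without mitochondrial and ribosomal genes, 1.28 as a mean over cells and 1.253 thinned.

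Among counts of nuclear members past the fold, the number higher in progenitor-like cells was 1 with no limit, 2 at a lower fold (a less strict mark than 1.5) and 2 with a minimum of 30 UMIs. The number lower there was 1 at a resolution of 1.2, 1 without mitochondrial and ribosomal genes, 13 at the lower fold and 1 at a fold of 2. In germ over somatic cells the number lower was 6 with the limit of 5%, 21 at the lower fold and 4 at a fold of 2, and the number higher was 9 at a fold of 2. In Sertoli-like over stromal-like cells the number higher was 30 with the limit of 5%, 11 without mitochondrial and ribosomal genes, 33 at the lower fold and 4 at a fold of 2, and the number lower was 2, 7 and 0 in the last 3 settings. In differentiating-like over SSC-like cells the number higher was 19 and 2, and the number lower 10 and 0, at the lower fold and the fold of 2. Among named genes, Cox7b in Sertoli-like over stromal-like cells reversed, to 1.11, and Cox8c in germ over somatic cells was 108, with the limit of 5%. Isoform shares were recomputed only with no mitochondrial limit, where all 12 values moved by less than their intervals. The limit of 5% left no named germ stage, and a resolution of 0.3 left no split of SSC-like from progenitor-like cells, so neither gave stage values. At a resolution of 1.2 only 226 cells were named germ cells, beside 324 in the main setting. Of these, 60 were SSC-like and 41 progenitor-like, so the values at this resolution rest on fewer cells.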

Other observations

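The 36 barcodes left out for a mitochondrial share of 10% or more had 17.8% mitochondrial-encoded UMIs and 3.16% nuclear member UMIs, with a median depth of 5489.5 UMIs. When they were clustered with the other cells, 22 fell among germ cells, 10 among Sertoli-like, 3 among stromal-like and 1 among macrophage-like cells. Malat1, a nuclear RNA, was at 19901 CPM in these barcodes, 4005 in the kept germ cells and 31444 in the kept somatic cells.

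Across single cells, the mitochondrial-encoded share and the depth had a Spearman rho of 0.394 in 324 germ cells and 0.527 in the 97 Kit-led cells, and 0.0474 in 596 somatic cells. The mitochondrial-encoded and nuclear member shares had a rho of -0.591 over 255 Sertoli-like cells and 0.368 over all somatic cells. These cells share 1 library and the shares of a cell share 1 total, so the values are descriptions.

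In the Prss50-led over the Kit-led cluster, Etfa was at 170 against 44.9 CPM. It encodes a subunit of the electron transfer flavoprotein that feeds the chain from fatty acid oxidation. Its partner Etfb was near even, at 93.6 against 84.2 CPM, and Etfdh was at 12.3 against 20.9 on 5 and 26 UMIs. Cyct was at 27.1 against 99.5 CPM. These values were not recomputed with the vst genes. Slc25a5, an ADP/ATP carrier, was at 50.8 CPM in differentiating-like and 196 in SSC-like cells. Ucp2, an inner membrane carrier, was at 15.3 CPM in germ and 338 in somatic cells.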
